A study of Mus musculus with 10 samples.

Results

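The extended major histocompatibility complex (MHC) of the mouse on chromosome 17 was examined through 546 array probes of CpG islands, of 88737 non-control probes in all. Members were the probes that map between 33.9 and 37.5 Mb of chromosome 17 on the mouse build mm9. Of these probes, 524 fell into 83 clusters, defined as at least 3 probes with starts at most 500 bp apart. The clusters are numbered 1 to 83 in chromosome order below, and they were set beside the other 571 clusters of chromosome 17 and all 13835 clusters of the array. The remaining 22 probes lay alone (14) or in pairs (4 pairs), and their levels ran from -0.67 to 0.50 on the log2 scale with a median of 0.13.

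The samples were left hemibrains of male C57BL/6j mice, an inbred strain with no named mutation or transgene, which were placed on a diet at 3 weeks of age and kept on it for 24 weeks. Polyunsaturated fatty acids set the diets apart: n-3 stood to n-6 as 7:1 in the enriched diet (ERD, 4 arrays), as 1:1 in the balanced diet (BLD, 3 arrays) and as 1:6 in the standard diet (STD, 3 arrays, the control). The design states that their caloric content was equal. In the assay, an antibody against 5-methylcytosine pulled down methylated DNA, which was labelled with Cy5 and hybridised against input DNA in Cy3. The titles of all 10 samples end in CONTROL, and no label states that each array is a separate animal, so every p-value rests on the spread among these arrays, which may be technical. A hemibrain holds many cell types, and a different mix of cells and a different methylation within cells cannot be told apart. The labelled tissue could not be checked against marker genes with methylation ratios.

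The MHC is a dense cluster of immune genes. Its class I genes, such as H2-K1 and H2-D1, encode cell-surface proteins that present peptides to CD8+ T cells, and these proteins have also been studied in neurons for their part in synaptic plasticity. Class II genes, such as H2-Aa and H2-Eb1, present peptides to CD4+ T cells and are expressed in the brain mainly by microglia and infiltrating immune cells. Tap1, Tap2, Psmb8 and Psmb9, which supply peptides to class I molecules, lie among the class II genes. The class III stretch that follows the class II genes holds genes for complement components, tumour necrosis factor and heat shock proteins, and the far end holds Mog, a myelin protein gene, and Gabbr1, a receptor subunit for the inhibitory transmitter GABA. CpG islands are stretches of DNA with many CpG dinucleotides, and those at promoters are usually little methylated.

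The sequences of 2 promoters are shown because they show how far the CpG content of promoters differs among antigen presentation genes. Both are RefSeq windows of 250 bases before to 50 bases after the start, on GRCm38.p6 and not on mm9, printed 5′ to 3′ with each CG in capitals, a motif that reads alike on both strands. The H2-D1 window (class I, chr17:35262844-35263143, plus strand) holds 19 CG and the H2-Eb1 window (class II, chr17:34305617-34305916, plus strand) holds 0.
H2-D1: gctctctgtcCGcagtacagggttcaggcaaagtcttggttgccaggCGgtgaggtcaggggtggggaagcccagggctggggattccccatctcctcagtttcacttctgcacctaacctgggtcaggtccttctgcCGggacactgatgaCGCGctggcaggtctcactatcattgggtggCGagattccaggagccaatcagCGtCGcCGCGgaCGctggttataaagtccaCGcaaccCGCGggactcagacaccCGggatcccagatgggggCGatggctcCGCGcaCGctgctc
H2-Eb1: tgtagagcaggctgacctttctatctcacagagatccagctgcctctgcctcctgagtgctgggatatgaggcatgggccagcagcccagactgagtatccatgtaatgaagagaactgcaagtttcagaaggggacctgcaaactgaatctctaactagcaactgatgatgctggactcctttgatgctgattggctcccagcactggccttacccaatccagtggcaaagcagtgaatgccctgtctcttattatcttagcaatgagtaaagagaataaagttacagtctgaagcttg
Neither window was tied to a probe, because the files pair no probe with a gene or a sequence and positions were not converted between builds.

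Gene groups of the locus differed in how much CpG their promoters hold. Among genes with a single annotated start, the median window held 7 CG over 22862 genes, and 26.3% of windows held 20 or more. From Tapbp to Gabbr1 in RefSeq order there are 157 protein-coding genes, of which 108 had such a window, with a median of 9 CG and 21.3% at 20 or more. Genes of chromatin and transcription, such as Ring1, a Polycomb subunit, and Mdc1, a DNA damage mediator, had the highest median of the groups, 29 CG in 7 of 16 listed genes, and 5 of the 7 windows held 20 or more. The 7 of 10 class II genes with a window had 0 to 3 CG, with a median of 3. The 12 of 25 class I genes had a median of 6.5, and none of the 12 reached 20. Medians were 13 for 4 of 5 antigen processing genes and 15 for 3 of 3 heat shock genes. They were 8.5 for 4 of 11 complement and cytokine genes and 9.5 for 8 of 12 neural and myelin genes. The 4 of the complement and cytokine group were Aif1, Ltb, Tnf and Lta, so no complement gene was among them. Because no cluster could be named, none of these groups was tested on the array, and the clusters below are given by position on mm9.

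Signal quality in the locus was close to that of the whole array. In both channels, 88.5% of the spots of its probes were well above background, against 87.6% for the rest of chromosome 17 and 86.7% for all mapped probes. None of its spots was saturated and 11 spots flagged as outliers were left out. Within the clusters, the share well above background was 90.4% in ERD, 91.2% in BLD and 82.6% in STD. Over all clusters of the array it was 88.6%, 89.7% and 81.6%, so the lower share in STD was not particular to the locus. STD arrays also had on average the narrowest spread over the 83 clusters, while the narrowest single array was BLD replicate 3 (interquartile range 0.17). Their interquartile range was 0.25 ± 0.046 (SD, n = 3), whereas BLD had 0.30 ± 0.12 (SD, n = 3) and ERD had 0.43 ± 0.10 (SD, n = 4). The part of brightness and spread in the diet differences below was not tested. Pairs of arrays within a diet correlated over the 83 clusters with a mean r of 0.66 in ERD, 0.69 in BLD and 0.18 in STD, and over all clusters with 0.70, 0.74 and 0.44. Between ERD and STD arrays the mean r was 0.29 over the 83 clusters and 0.49 over all clusters, higher than within STD. These correlations describe arrays that share probes and are given without a test.

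Methylation signal along the locus was centred near the array median. The value of a cluster is the mean log2(Cy5/Cy3) of its probes after each array was set to a median of 0, and its level is the mean of the 3 diet means. The 83 levels ran from -0.40 to 0.66, with a median of -0.0093, against -0.027 for the rest of chromosome 17 and -0.045 for all clusters. In limma, 18 of the 83 clusters (21.7%) lay above the array median and 25 (30.1%) lay below it at an adjusted p under 0.05, close to the 20.6% and 33.3% of all clusters, and 40 passed in neither direction. With normexp background correction none of the 83 passed in either direction, nor did any cluster of the array. A level also carries probe and dye effects shared by all arrays, since no dyes were swapped.

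Few clusters had signal of one sign on every array. Clusters 1, 20 and 36 exceeded the array median on all 10, which is 3.61% of the 83 against 8.27% of all clusters. Clusters 2, 10, 17, 18, 37, 38, 51, 72 and 73 lay below it on all 10, which is 10.8% against 16%. No test of these shares was made. By size, the median was 0.0032 in 46 clusters of 3 to 5 probes, -0.025 in 30 of 6 to 10 and -0.13 in 7 of over 10, and over all clusters it was 0.0031, -0.082 and -0.085.

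**Figure D1:**
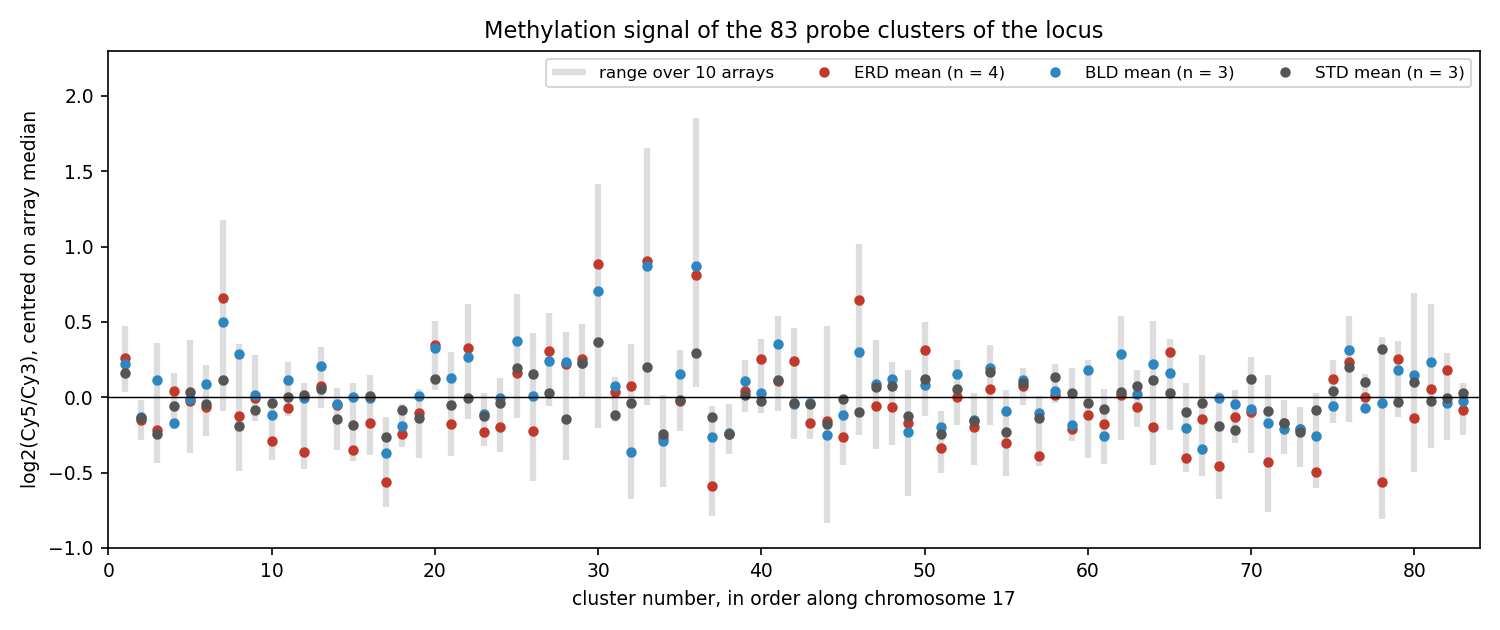
Mean log2(Cy5/Cy3) of each of the 83 clusters in each diet (points), centred on the array median, in chromosome order, with the range over 10 arrays as bars. Most clusters lie within 0.5 of the array median, and clusters 30, 33 and 36 stand highest in ERD and BLD.

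The highest levels were found in clusters 33, 36 and 30. Cluster 33 (chr17:35042317-35042572, 3 probes) had a level of 0.66, with 0.50, 1.65, 0.58 and 0.89 on the ERD arrays, 1.02, 1.05 and 0.54 on BLD and -0.050, 0.54 and 0.12 on STD. Cluster 36 (chr17:35114412-35115587, 5 probes) had a level of 0.66, with 0.42, 1.85, 0.18 and 0.79 on ERD, 1.05, 1.07 and 0.49 on BLD and 0.070, 0.59 and 0.22 on STD. Cluster 30 (chr17:34817001-34817486, 5 probes) had a level of 0.65, with 0.30, 1.42, 0.52 and 1.31 on ERD, 1.09, 0.63 and 0.40 on BLD and 0.39, 0.91 and -0.21 on STD. In each of the 3 clusters ERD replicate 2 was the highest array and the diets overlapped, although in cluster 33 STD reached the other diets through replicate 2 alone. The adjusted p of their levels was 0.000371, 0.00163 and 0.00131 in limma. Cluster 7 (chr17:34048470-34049017, 6 probes) and cluster 46 (chr17:35293254-35293603, 4 probes) followed, with levels of 0.42 and 0.28.

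The lowest level was that of cluster 17 (chr17:34168426-34168766, 4 probes), at -0.40. It measured -0.73, -0.37, -0.55 and -0.61 on ERD, -0.56, -0.22 and -0.32 on BLD and -0.33, -0.34 and -0.13 on STD, so all 10 arrays lay below 0. Clusters 37, 74, 34 (chr17:35068138-35068516, 3 probes) and 51 (chr17:35378251-35379526, 10 probes) came next, with levels of -0.33, -0.28, -0.27 and -0.26. The adjusted p of these 5 levels lay between 9.29e-05 and 0.00272 in limma. The longest cluster, 18 (chr17:34255844-34259532, 29 probes over 3689 bp), had a level of -0.18 and values of -0.33 to -0.044, and the spread of its arrays within a diet was among the 3 smallest of the locus.

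Spread within a diet differed widely among the clusters. The within-diet SD, pooled over the 3 diets, had a median of 0.15 in the locus and 0.16 both on the rest of chromosome 17 and over the array. It was largest in clusters 36 (0.53), 30 (0.51) and 44 (chr17:35263220-35263542, 3 probes; 0.44), and smallest in clusters 43 (chr17:35257650-35258746, 10 probes; 0.058), 58 (chr17:35837657-35838016, 5 probes; 0.065) and 18 (0.074). Cluster 44 ran from -0.83 to 0.47, and 50% of its spots were well above background.

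Levels of neighbouring clusters could differ widely. Over the 82 adjacent pairs, levels correlated with an r of -0.046, as a description over clusters of the same 10 arrays. Of 18 pairs at most 5000 bp apart, 3 (16.7%) were called on opposite sides of the array median and none on the same side. Of 81 such pairs on the rest of chromosome 17, 13 (16.0%) were called on opposite sides and 9 (11.1%) on the same side, and of 1478 over the array, 148 (10%) and 283 (19.1%). Cluster 36, at 0.66, lay 2987 bp before cluster 37, at -0.33, the widest step of the 18. Its 5 probes had levels of 0.28 to 1.10, whereas the 9 probes of cluster 37 ranged from -1.15 to 0.34. Cluster 12 (-0.12) lay 3469 bp before cluster 13 (0.11), and cluster 50 (0.17) lay 4541 bp before cluster 51 (-0.26).

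By stretches of 600000 bp, the fourth and the fifth, from 35700000 on, had the lowest median levels. The 15 clusters of the fourth had a median of -0.12, with 1 called above and 8 called below the array median, where 20.6% and 33.3% of all clusters were called, and a median ERD minus STD difference of -0.14. The fifth held 3 clusters, all called below, with a median of -0.22, and was followed by a gap of 564896 bp without a cluster. The other 4 stretches, of 22, 13, 21 and 9 clusters, had medians of -0.045, 0.037, 0.044 and 0.037. These stretches were set by length alone and were not tested.

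The clusters at the borders of the locus are given for reference. The first one inside had a level of 0.21 and the last cluster before it, at chr17:33896733-33897363, had 0.043. The last cluster inside, at chr17:37333854-37334616, had -0.026 and the next one outside, at chr17:39980411-39981048, had 0.19.

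The median of the locus differed from that of the rest of chromosome 17 on the same array by less than the spread between arrays. The difference of the medians was -0.0064 ± 0.036 (SD, n = 10) and was above 0 on 5 of 10 arrays. On the ERD arrays it was -0.043, -0.033, -0.058 and -0.0097, on BLD 0.069, 0.0007 and 0.0088, and on STD 0.0012, 0.016 and -0.016. The 4 ERD arrays lay below 0 and the 3 BLD arrays above it, and STD overlapped both. With a single value for each array over chosen members, no p is given.

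The first diet question was whether the enriched diet went with another methylation signal than the standard diet. ERD minus STD differences of the 83 clusters ran from -0.89 to 0.75 with a median of -0.026, against 0.011 on the rest of chromosome 17 and 0.0033 over the array. None of the 83 passed an adjusted p of 0.05 in limma, and none of all clusters did (0%). At an unadjusted p under 0.05 there were 19 (22.9%), 8 higher and 11 lower in ERD, where all clusters gave 15.7%, with 7.68% higher and 8.02% lower. The arrays of the 2 diets did not overlap in 17 clusters (20.5%, against 16.2% of all), 6 higher and 11 lower, where all clusters gave 7.24% and 9.01%. Without STD replicate 3 the 19 became 8 (9.64%, against 8.62% of all) and with normexp 7 (8.43%, against 8.72%), so the locus then lay near the share of the array. ERD lay on slides of its own, so slide and diet cannot be told apart in this comparison. A random block for slide, which gave a count of 19, does not separate them. With all arrays scaled to one spread the count was 16. The share of all clusters is not given for either count.

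The lowest p among clusters lower in ERD belonged to 78, 74, 37 and 12. Cluster 74 (chr17:36407880-36408924, 7 probes) measured -0.40, -0.48, -0.51 and -0.60 on ERD, -0.31, -0.24 and -0.24 on BLD and -0.14, 0.026 and -0.14 on STD. All ERD arrays lay below all BLD arrays and these below all STD arrays, and the difference of ERD and STD was -0.41 ± 0.089 (SE), adjusted p = 0.156 in limma. Cluster 37 (chr17:35118574-35119489, 9 probes) measured -0.79, -0.51, -0.61 and -0.45 on ERD, -0.21, -0.32 and -0.25 on BLD and -0.22, -0.056 and -0.12 on STD. Here ERD again lay below both other diets, while BLD and STD overlapped, and the difference was -0.46 ± 0.10 (SE), adjusted p = 0.156. Cluster 12 (chr17:34088124-34088642, 5 probes) measured -0.42, -0.27, -0.48 and -0.28 on ERD, 0.058, -0.030 and -0.035 on BLD and -0.024, -0.030 and 0.094 on STD. Its BLD and STD arrays lay around 0 and its ERD arrays below them, with a difference of -0.38 ± 0.091 (SE) and adjusted p = 0.181. With normexp the differences of clusters 74 and 12 changed sign, to 0.048 and 0.061.

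The clusters higher in ERD with the lowest p were 46, 7, 40 and 79. Cluster 46 measured 0.67, 1.02, 0.66 and 0.25 on ERD, 0.67, 0.39 and -0.16 on BLD and 0.20, -0.25 and -0.24 on STD. All 4 ERD arrays lay above the 3 STD arrays, although ERD replicate 4 was close to STD replicate 1. BLD overlapped both, and the difference of ERD and STD was 0.75 ± 0.21 (SE), adjusted p = 0.188 in limma. Cluster 7 measured 0.27, 1.17, 0.47 and 0.71 on ERD, 0.61, 0.57 and 0.32 on BLD and 0.10, 0.34 and -0.090 on STD. Its ERD and STD arrays overlapped, and the difference was 0.54 ± 0.19 (SE), adjusted p = 0.219. Clusters 40 (chr17:35195952-35196676, 7 probes) and 79 (chr17:37125514-37125964, 4 probes) differed by 0.28 ± 0.10 (SE) and 0.29 ± 0.10 (SE), both with an adjusted p of 0.229.

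**Figure D2:**
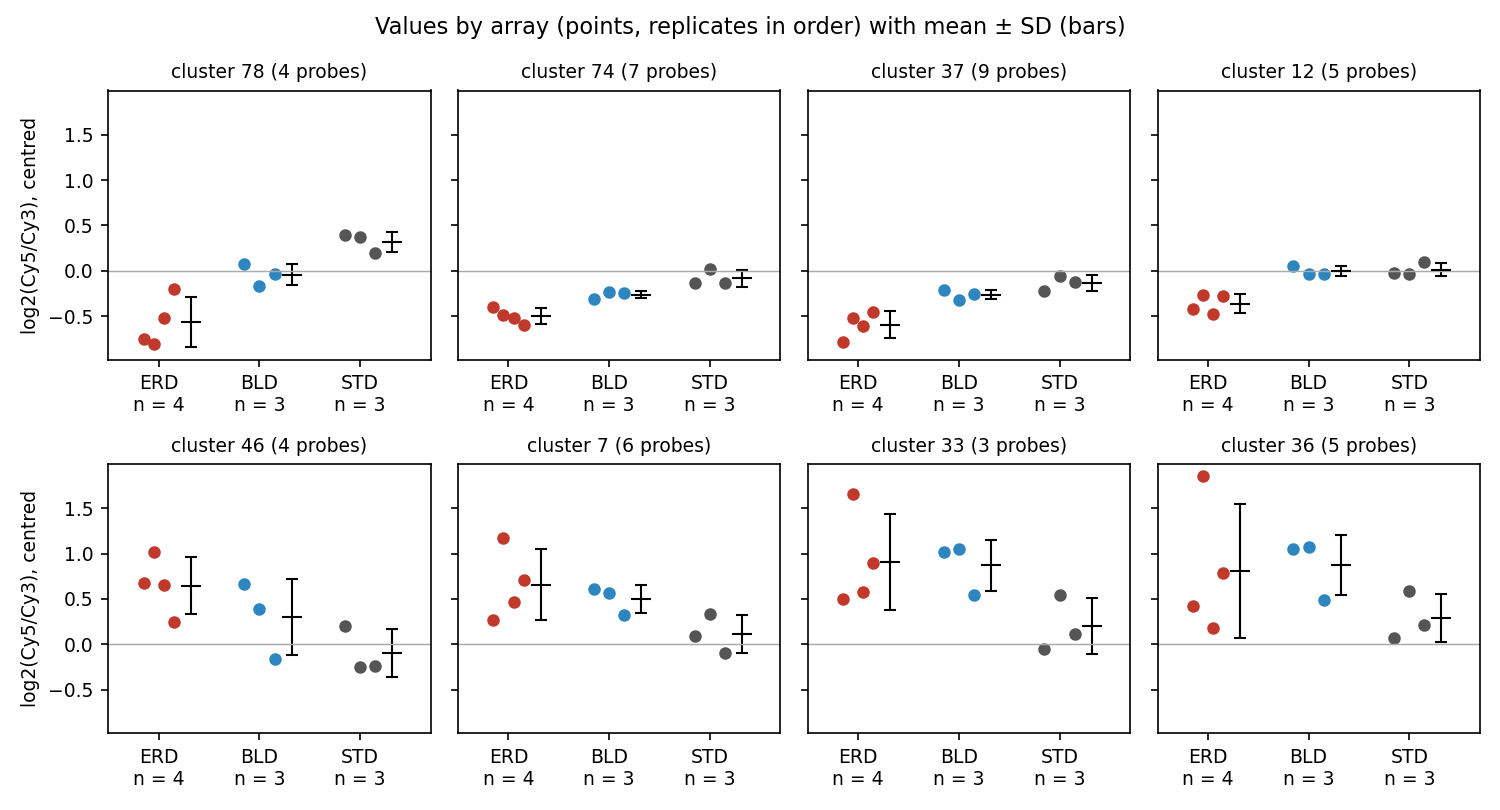
Log2(Cy5/Cy3) on each array (points) with the mean and SD of each diet (bars) for 8 clusters. In cluster 78 all ERD arrays lie below BLD and STD lies highest, and in clusters 33 and 36 ERD replicate 2 stands above the other arrays.

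The balanced diet was compared with the standard diet in the same fit. The median BLD minus STD difference was 0.036 in the locus, 0.030 on the rest of chromosome 17 and 0.030 over the array, and 51 of 83 clusters (61.4%) were higher in BLD, against 56.7% of all. None passed an adjusted p of 0.05 in limma, nor did any cluster of the array (0%). At an unadjusted p under 0.05 there were 5 (6.02%), 4 higher and 1 lower, where all clusters gave 11.2%, with 7.31% higher and 3.89% lower. Arrays of BLD and STD did not overlap in 12 clusters (14.5%, against 17.4% of all), 6 in each direction, where all clusters gave 11.1% higher and 6.27% lower. The 5 became 0 without BLD replicate 2 (5.43% of all clusters), 8 without BLD replicate 3 (18.7%), and 2 without BLD replicate 1 (4.44%), STD replicate 1 (7.53%) or STD replicate 3 (7.58%). They became 14 with array weights (16.9%, against 18.7% of all), 9 with quantile normalization (10.8%, against 14.2%) and 2 with normexp (2.41%, against 3.59%). With slide as a fixed block there was 1 (1.2%, against 1.37%), so the share of the array moved with the counts. The fixed-block difference rests on BLD replicate 3 and STD replicate 1 alone, the arrays of the slide shared by both diets.

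Of the 4 clusters higher in BLD, cluster 33 had the largest difference, 0.67 ± 0.27 (SE), adjusted p = 0.44 in limma. Clusters 8 (chr17:34052806-34053148, 4 probes), 3 (chr17:33961287-33961688, 3 probes) and 28 (chr17:34783897-34784588, 5 probes) differed by 0.48, 0.36 and 0.38. Cluster 8 measured 0.36, 0.32 and 0.19 on BLD, -0.32, 0.021 and -0.27 on STD and 0.084, 0.25, -0.49 and -0.36 on ERD. BLD and STD did not overlap there, while ERD lay on both sides of STD. BLD replicate 3 and STD replicate 1 shared a slide, and on it BLD minus STD was 0.59 in cluster 33, 0.51 in cluster 8, 0.53 in cluster 3 and 0.21 in cluster 28. Lower in BLD, after cluster 78, were clusters 59 (chr17:35958752-35959466, 8 probes), 67 (chr17:36033850-36034340, 3 probes) and 74, at -0.21, -0.30 and -0.18, with unadjusted p-values above the threshold. With normexp the BLD minus STD differences of clusters 8, 3, 28, 67 and 74 changed sign, to -0.031, -0.25, -0.016, 0.19 and 0.087.

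Between the enriched and the balanced diet, no cluster passed the adjusted threshold, while more clusters were lower than higher in ERD. The median ERD minus BLD difference was -0.071, against -0.020 on the rest of chromosome 17 and -0.026 over the array, and 57 of 83 clusters (68.7%) were lower, against 55.5% on the rest of chromosome 17 and 56.4% of all. At an adjusted p of 0.05 limma called none, in the locus or over the array (0%). At an unadjusted p under 0.05 there were 14 (16.9%), 2 higher and 12 lower, where all clusters gave 10.2%, with 3.48% higher and 6.71% lower, and the rest of chromosome 17 gave 6.3%. Arrays of ERD and BLD did not overlap in 13 clusters (15.7%, against 10.1% of all), 1 higher and 12 lower, where all clusters gave 3.32% and 6.79%. The 14 became 8 (9.64%) without BLD replicate 2 (6.74% of all) and 8 with loess (8.42% of all). Bright probes alone left 59 clusters to test, of which 7 passed (11.9%, against 10.8% of all), and normexp left 1 (1.2%, against 0.484%). ERD and BLD shared no slide, so slide and diet cannot be told apart here either. A random block for slide, which gave a count of 13, does not separate them, and its share of all clusters is not given.

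Cluster 68 (chr17:36053005-36054063, 8 probes) had the lowest p of this comparison. It measured -0.68, -0.47, -0.41 and -0.26 on ERD, 0.031, 0.036 and -0.076 on BLD and -0.25, -0.29 and -0.028 on STD. ERD lay below BLD on every array and STD overlapped both, with a difference of ERD and BLD of -0.45 ± 0.11 (SE), adjusted p = 0.422 in limma. Clusters 12, 78 and 15 (chr17:34161250-34162368, 10 probes) followed, at -0.36, -0.52 and -0.35, with adjusted p-values of 0.422, 0.422 and 0.452. Cluster 15 measured -0.40, -0.37, -0.42 and -0.20 on ERD, 0.032, 0.094 and -0.13 on BLD and -0.33, -0.091 and -0.12 on STD, so that BLD stood above ERD on every array while STD overlapped both. With normexp the ERD minus BLD differences of clusters 68 and 15 changed sign, to 0.0037 and 0.082. Higher in ERD were clusters 32 (chr17:34987166-34987677, 4 probes), 40, 4 (chr17:33979927-33980369, 4 probes) and 82 (chr17:37187615-37188196, 5 probes), at 0.44, 0.22, 0.21 and 0.22. Of these, 32 and 40 had an unadjusted p under 0.05. The comparisons share arrays with one another, so a cluster that recurs in them, such as 12 or 78, is not shown independently by each.

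**Figure D3:**
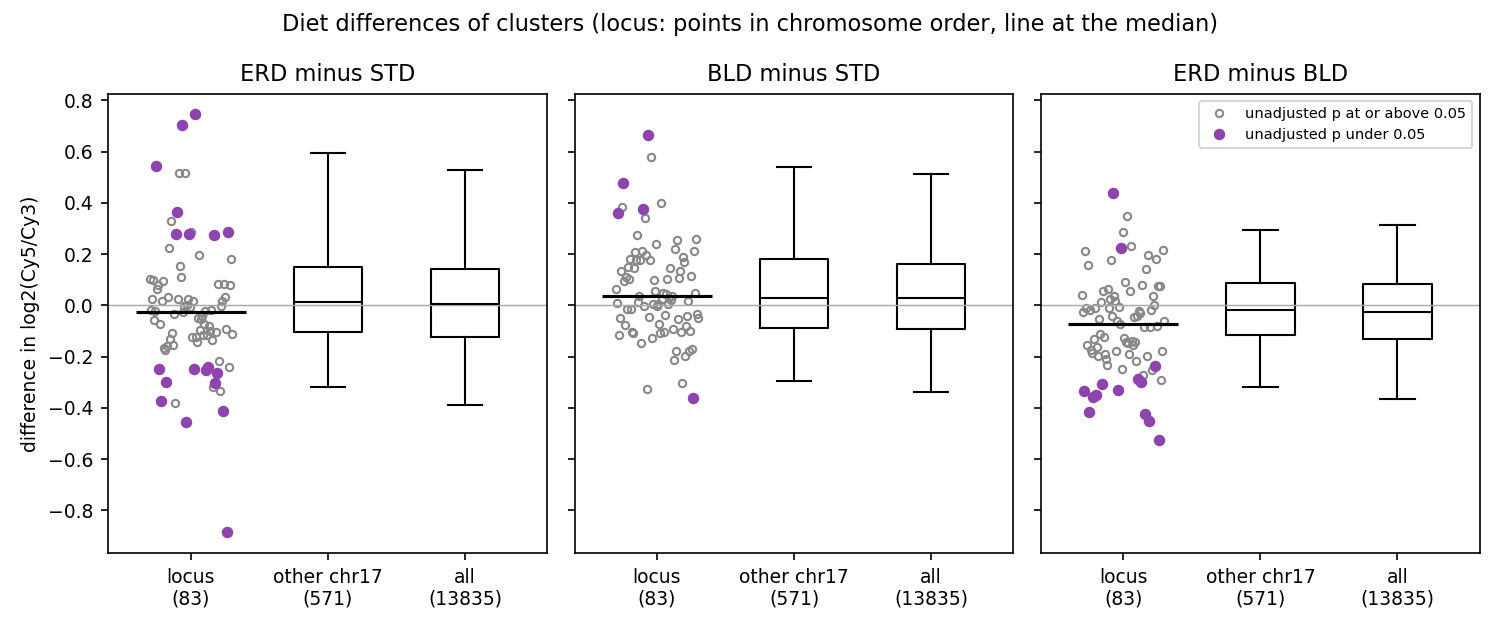
Differences in log2(Cy5/Cy3) between diets for the 83 clusters of the locus (points, in chromosome order, thick line at the median) beside boxes for the other 571 clusters of chromosome 17 and all 13835 clusters (box, quartiles; whiskers, the middle 95% of clusters). In ERD minus BLD the median of the locus lies at -0.071 and 12 of the 14 points with an unadjusted p under 0.05 lie below 0.

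A trend over the dietary n-3 to n-6 ratio was called in 1 cluster, of dim probes, and the call was lost in 9 of 10 fits without 1 array and with slide as a random block. The slope was taken per doubling of the ratio over the 3 diets. Cluster 78 fell with the ratio by 0.17 ± 0.025 (SE) per doubling, adjusted p = 0.0446 in limma, and it was 1 of 6 clusters of the whole array past this threshold (0.0434%). At an unadjusted p under 0.05 the locus had 17 clusters (20.5%), 7 with a positive and 10 with a negative slope, where all clusters gave 15%, with 7.09% positive and 7.94% negative. The 17 became 11 without STD replicate 3 (13.3%, against 8.46% of all) and 7 with normexp (8.43%, against 8.98%).

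Cluster 78 (chr17:37095397-37095744, 4 probes) lay towards the far end of the locus. It measured -0.75, -0.81, -0.51 and -0.19 on the ERD arrays, 0.075, -0.16 and -0.034 on BLD and 0.40, 0.37 and 0.19 on STD. The 3 diets did not overlap: every ERD array lay below every BLD array and every BLD array below every STD array. ERD had a mean of -0.57 ± 0.28 (SD, n = 4), BLD one of -0.041 ± 0.12 (SD, n = 3) and STD one of 0.32 ± 0.11 (SD, n = 3). Its ERD minus STD difference of -0.89 ± 0.14 (SE) was the lowest of the locus and had an adjusted p of 0.0793 in limma. BLD minus STD was -0.36 in the fit and -0.43 on the slide that held both diets, and ERD minus BLD was -0.52.

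Cluster 78 also had the lowest share of bright spots in the locus. In it, 35% of its spots were well above background in both channels, 31.2% in ERD, 41.7% in BLD and 33.3% in STD, and no other of the 83 clusters was under 50%. Its probes were bright in both channels on 8, 5, 1 and 0 of the 10 arrays, so it could not be tested on bright probes alone. The part of dim signal in this trend was not tested. With normexp the slope was -0.057 (adjusted p = 0.488), and the adjusted p was above 0.05 as well with loess (0.0967), with the median of the probes (0.0872), with array weights (0.0736) and with slide as a random block (0.0522). Leaving out 1 array kept the slope between -0.19 and -0.15, and the adjusted p ran from 0.0348 to 0.247, under 0.05 without ERD replicate 4 and above it without any other array. Cluster 74 was the other cluster of the locus in which the 3 diets lay in this order with no overlap. The share of all clusters with this order is not given. Over all clusters, arrays did not overlap in 16.2% for ERD and STD, 17.4% for BLD and STD and 10.1% for ERD and BLD. Cluster 74 had a slope of -0.077 ± 0.016 (SE), adjusted p = 0.115 in limma, at 94.3% of spots well above background.

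Other slopes did not pass the adjusted threshold. Clusters 37 and 12 had slopes of -0.087 ± 0.019 (SE) and -0.073 ± 0.019 (SE), with adjusted p-values of 0.124 and 0.168 in limma. With normexp the slopes of clusters 74 and 12 changed sign, to 0.0075 and 0.0097. Positive slopes with the lowest p were those of clusters 46, 40, 7 and 79, at 0.14, 0.053, 0.10 and 0.052, with adjusted p-values from 0.178 to 0.241.

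**Figure D4:**
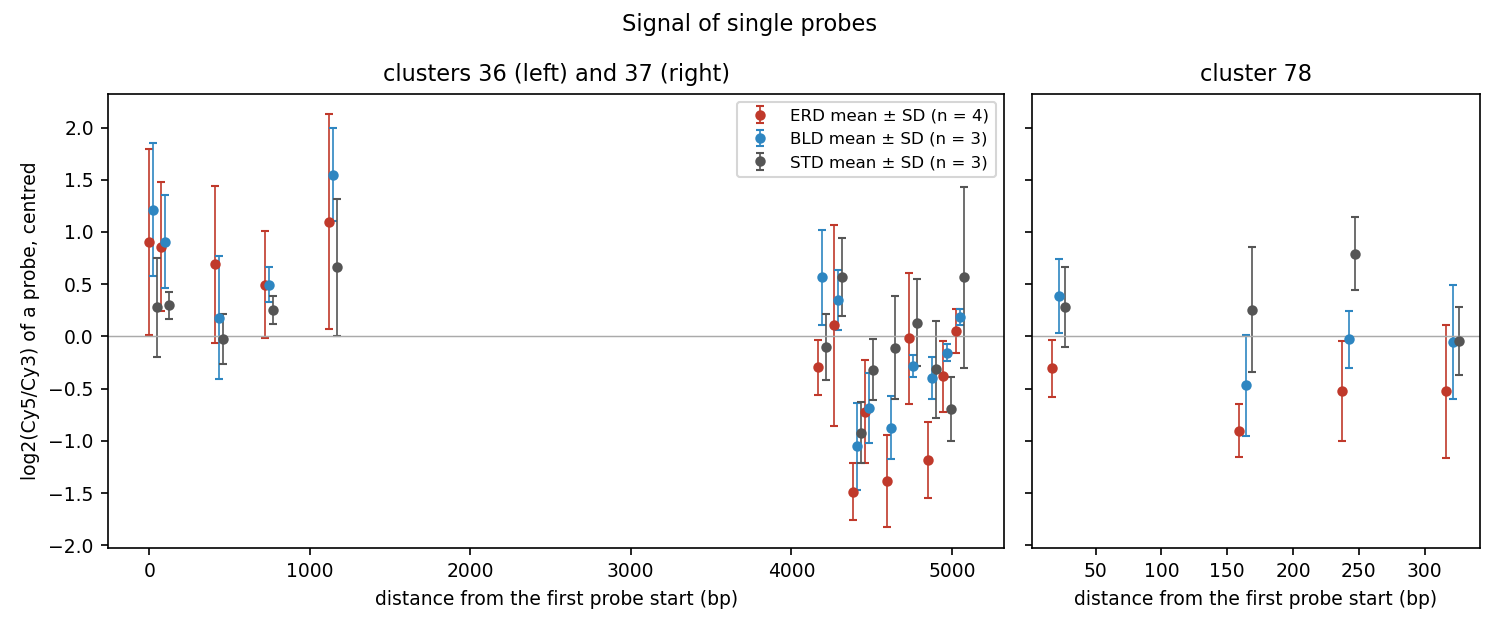
Mean log2(Cy5/Cy3) of single probes with the SD of each diet, against the distance in bp from the first probe start, for clusters 36 and 37 (left panel) and cluster 78 (right panel); points of the diets are set slightly apart. The 5 probes of cluster 36 lie mostly above 0 and those of cluster 37 on both sides of it, and in cluster 78 ERD has the lowest mean at each of the 4 probes.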

How the data were processed

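Per the labels, each array carried immunoprecipitated DNA in Cy5 and input DNA in Cy3. Per the file headers, Agilent Feature Extraction 10.7.3.1 gave the spot intensity, while the submitters' processing notes list version 9.0. The deposited processed intensity was background-subtracted and scaled between dyes by a linear factor, per the file headers. The deposited log10 ratio of Cy5 over Cy3 is that of the scanner files, rounded (largest difference 0.00498), and was used as an alternative. Other deposited columns, flags and positions (mm9), are codes.

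From these, each probe was given log2(Cy5/Cy3) of its processed intensity, outlier spots were dropped and each array was centred on its median, without loess or quantile steps. Clusters had at least 3 probes with starts at most 500 bp apart, and their value is the mean of the probes. limma 3.58.1 in R 4.3.3 (lmFit, eBayes) was run over the 10 arrays on all 13835 clusters, no covariate was used, and p-values were adjusted by Benjamini-Hochberg over all clusters, with a threshold of 0.05. The trend used log2 of the n-3 to n-6 ratio as a numeric term. The level tests the mean of the 3 diet means against 0. The limma fit of ERD minus STD was tested on simulated clusters with known shifts. The number of arrays limits the precision.

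Clusters were named by rule: per comparison and for the trend, those past the threshold, then the 4 higher and 4 lower with the lowest p; the 5 highest and 5 lowest levels and the most probes; and the 3 largest and 3 smallest within-diet SDs. Clusters 1, 2, 10, 13, 20, 38, 50, 72 and 73 fall outside it and were named after their values were seen. The members and lists were chosen with earlier results of these data known. The clause on gene symbols could not be applied, since no file pairs probes with genes. ERD arrays lay on 2 slides of their own, BLD on 2 and STD on 2, with 1 slide shared by BLD replicate 3 and STD replicate 1. Where ERD is compared with another diet, diet and slide cannot be told apart, and in the trend they cannot be fully told apart. Alternatives were normexp (offset 50), loess, quantile normalization, one spread for all arrays, bright probes alone, outlier spots kept and the median of probes. Others were a gap of 300 bp, the deposited log10 ratio, array weights, slide as a block and the arrays of the compared diets alone. Each array was also left out in turn. Normexp used median spot and background signals in place of the processed intensity, with no scaling between dyes other than the centring.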

Additional observations from a re-analysis of the deposited data

Results flagged for a closer look

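In 2 clusters of the locus, 1 ERD array stood apart from the other 3 by more than Dixon's critical value at the 95% level. The 4 ERD arrays were examined in 31 measures, the 28 named clusters and the locus median, its difference from the rest of chromosome 17 and its interquartile range, and chance flags about 1 in 20 of them. In cluster 59 (chr17:35958752-35959466) the gap was 0.893 of the range, with -0.25, -0.11, -0.24 and -0.25 on the ERD arrays, where ERD replicate 2 was highest. In cluster 43 (chr17:35257650-35258746), of the smallest spread in the locus, it was 0.855 of the range, with -0.12, -0.14, -0.14 and -0.28, where ERD replicate 4 was lowest.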

How the results depend on the processing

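With normexp, unadjusted counts were 7 for ERD minus STD (8.43%, against 8.72% of all) and 2 for BLD minus STD (2.41%, against 3.59%). They were 1 for ERD minus BLD (1.2%, against 0.484%) and 7 for the trend (8.43%, against 8.98%). No level was called above (0) or below (0), in the locus or over the array. Among the 43 results of 28 named clusters, 12 reversed, all with normexp. ERD minus STD turned to 0.048 in cluster 74 and 0.061 in cluster 12. BLD minus STD turned to -0.031 in cluster 8, -0.25 in cluster 3, -0.016 in cluster 28, 0.19 in cluster 67 and 0.087 in cluster 74. ERD minus BLD turned to 0.0037 in cluster 68 and 0.082 in cluster 15. Slopes turned to 0.0075 in cluster 74 and 0.0097 in cluster 12, and the level of cluster 46 to -0.11. The normexp values start from median spot and background signals, not from the processed intensity scaled between dyes. They thus differ from the main values in more than the background correction, and the cause was not tested.

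For ERD minus STD, quantile normalization brought 1 cluster past the adjusted threshold, 78 at -0.91 (adjusted p = 0.0203), where 0.0723% of all clusters passed. BLD minus STD had 9 clusters at an unadjusted p under 0.05 with quantile normalization (14.2% of all clusters) and 8 with one spread (13.5%). It had 3 with the median of probes (9.92%), 14 with array weights (18.7%) and 8 with the arrays of both diets alone (13.2%). With slide as a fixed block, which compares only BLD replicate 3 with STD replicate 1, it had 1 (1.37%). ERD minus BLD had 8 with loess (8.42%) and 7 of 59 with bright probes alone (10.8%). The trend call was lost (0) with normexp, loess, bright probes alone, where cluster 78 had too few probes, the median of probes, array weights and slide as a random block (consensus correlation 0.0464). Levels called below were 16 with the median of probes (19.3%, against 25.2% of all). The other counts stayed within 1.5 times the main count. The median difference from the rest of chromosome 17 stayed between -0.011 and 0.0019, above 0 with normexp (0.0016) and bright probes (0.0019).

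Leaving out each array gave 0 to 1 adjusted and 8 to 20 unadjusted calls for ERD minus STD, 0 to 0 and 0 to 8 for BLD minus STD, 0 to 0 and 8 to 18 for ERD minus BLD, and 0 to 1 and 11 to 20 for the trend. The share of all clusters moved as well. At the lowest unadjusted counts it was 8.62% for ERD minus STD, 5.43% for BLD minus STD, 6.74% for ERD minus BLD and 8.46% for the trend. At the highest count of BLD minus STD it was 18.7%, and for the other highest counts it is not given. The adjusted call in ERD minus STD was cluster 78 without ERD replicate 4 (-1.01, adjusted p = 0.049), where 0.00723% of all clusters passed. Levels called above were 13 to 19 and below 20 to 26, and the share of all clusters in these fits is not given. The median difference from the rest of chromosome 17 was -0.015 to -0.0006. No paired analysis was possible because the labels give the diets no shared replicate numbers. Dim spots limit cluster 78, and 3 to 4 arrays per diet limit all comparisons.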

Other observations

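Over the 83 clusters, the mean level on the BLD arrays correlated with the ERD minus STD difference, which uses other arrays, with an r of 0.59, and with 0.69 over the rest of chromosome 17 and 0.65 over the array. The points share their probes and the dye orientation, and no test was made. Level correlated with the brightness of the input channel with an r of 0.052 over the 83 clusters and -0.08 over the array.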
